A study of Mus musculus with 20 samples.

Results

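Macrophages in tumors are often described along an axis between alternative and classical activation, and 10 genes that mark this axis or resident macrophages were followed here through 20 arrays. The genes were taken by name and were Mrc1, Cd163, Folr2, Lyve1, Stab1, Arg1, Nos2, Csf1r, Adgre1 and Retnla. They were chosen with earlier results of these data known. All 10 were found among 19938 genes, each read from the 1 probe set that carries its symbol alone. The tumors were implants of LLC-1, a mouse Lewis lung carcinoma line, in C57Bl/6 hosts, whose own immune cells were thus present. They were given 5 injections of adenovector, of 25 µl each and 48 h apart, at a load whose log10 number of infectious units was 8. The 4 groups, of 5 arrays each, received a vector for IFNbeta (interferon beta, a secreted antiviral cytokine), for p19Arf (a tumor suppressor that stabilises p53), for both (p19Arf+IFNbeta, called the combination), or for eGFP, a fluorescent protein that served as the control. All groups thus shared the injections and an adenoviral vector, and no uninjected tumor was analysed here. The labels give neither the promoters of the vectors nor the age or sex of the hosts, and do not say that each array came from its own animal, so p-values measure the spread between these samples.

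Macrophages exposed to interferon gamma and microbial products turn on Nos2, which makes nitric oxide from arginine, while interleukin 4 and interleukin 13 act through STAT6 to turn on Arg1, Retnla and Mrc1. Arg1 and Nos2 therefore compete for 1 substrate, and in mouse cells they serve as opposite poles. Folr2, Lyve1, Cd163 and Stab1 mark resident, often perivascular, macrophages that take up debris. Csf1r and Adgre1 are carried by macrophages of either state. In a whole tumor, fewer cells of a type and less RNA per cell cannot be told apart.

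The markers are described here in 3 sets, by where the unadjusted 95% interval of the difference between the combination and eGFP lay relative to 0. Lyve1, Folr2, Mrc1 and Cd163 had means that were 1.96-fold, 1.52-fold, 1.44-fold and 1.35-fold lower, and Arg1 had a 1.54-fold higher mean. Csf1r, Adgre1, Stab1, Retnla and Nos2 had 95% intervals of the difference that include 0. In limma, 0 of the 10 genes passed an adjusted p of 0.05 in any of 9 contrasts or in the F-test over the 4 groups. In the combination against eGFP, 0 genes (0%) of the whole array passed either. At an unadjusted p under 0.05, 4 of the 10 were lower and 1 higher in that comparison, while 11.4% and 6.18% of all genes were lower and higher by the same rule. Since the 10 were chosen with earlier results of these data known, these counts are a description and no independent test. The median difference of the 10 was -0.16, against 0.02 for all genes.

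Properties common to all arrays bear on these values. Arrays of the same group correlated at 0.951 to 0.994. The standard deviation over the probe sets of an array, its spread, lay between 1.99 and 2.15. The 5 arrays of lowest spread were p19Arf+IFNbeta replicates 4 and 5, p19Arf replicates 2 and 4, and IFNbeta replicate 3. Of 18 pan-macrophage genes 17 were measured, and their mean log2 value ran from 9.80 to 10.50 over the 20 arrays, which does not show that the signal of the 10 genes came from macrophages. Skeletal muscle genes had higher means in the combination than in eGFP for 11 of 12, with scores of 7.52 to 9.12 against 7.47 to 8.08, and neutrophil genes for 11 of 14, with scores of 7.92 to 8.44 against 7.85 to 8.17. T cell genes had higher means for 7 of 8, with scores of 7.98 to 8.71 against 7.78 to 8.10, and fibroblast genes for 7 of 11, with scores of 9.77 to 10.61 against 9.59 to 10.03. Skin epidermis genes had lower means for 8 of 9, with scores of 6.54 to 6.80 against 6.57 to 7.33. Mast cell genes had lower means for 6 of 7, with scores of 7.51 to 7.93 against 7.69 to 8.05. Of all genes 55% had higher and 45% lower means in this comparison. The part of these cell types in the marker differences was not tested.

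The promoters of 5 of the 10 genes were in the RefSeq table of build GRCm38.p6, namely Mrc1, Cd163, Folr2, Stab1 and Retnla. Those of 3 genes that were lower together in the combination, and of Retnla, the textbook STAT6 target, are shown from 250 bases before to 50 after the start. Capitals mark matches, on either strand, to the STAT6 site TTCNNNNGAA, the GAS site TTCNNNGAA, the ISRE GAAANNGAAA or the TATA box TATAAA. The windows lie at chr2:14229164-14229463, plus strand, at chr6:124304401-124304700, plus strand, at chr7:101857141-101857440, minus strand (1 of 2 starts listed), and at chr16:48842359-48842658, plus strand.
Mrc1: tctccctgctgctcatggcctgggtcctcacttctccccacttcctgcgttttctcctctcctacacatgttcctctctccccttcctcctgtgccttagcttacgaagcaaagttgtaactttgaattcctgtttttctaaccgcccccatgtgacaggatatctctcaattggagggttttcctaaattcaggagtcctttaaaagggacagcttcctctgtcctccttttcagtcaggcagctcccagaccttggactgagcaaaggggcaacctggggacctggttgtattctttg
Cd163: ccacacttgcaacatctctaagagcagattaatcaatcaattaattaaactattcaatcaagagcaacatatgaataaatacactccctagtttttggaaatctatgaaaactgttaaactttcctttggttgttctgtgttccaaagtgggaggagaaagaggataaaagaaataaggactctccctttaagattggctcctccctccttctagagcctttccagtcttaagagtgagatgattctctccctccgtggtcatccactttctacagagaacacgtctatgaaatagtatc
Folr2: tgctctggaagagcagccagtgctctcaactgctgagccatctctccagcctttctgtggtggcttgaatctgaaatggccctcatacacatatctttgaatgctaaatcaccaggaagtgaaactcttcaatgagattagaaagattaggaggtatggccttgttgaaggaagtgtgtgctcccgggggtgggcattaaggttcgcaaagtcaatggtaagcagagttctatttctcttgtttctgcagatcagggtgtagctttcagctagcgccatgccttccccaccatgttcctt
Retnla: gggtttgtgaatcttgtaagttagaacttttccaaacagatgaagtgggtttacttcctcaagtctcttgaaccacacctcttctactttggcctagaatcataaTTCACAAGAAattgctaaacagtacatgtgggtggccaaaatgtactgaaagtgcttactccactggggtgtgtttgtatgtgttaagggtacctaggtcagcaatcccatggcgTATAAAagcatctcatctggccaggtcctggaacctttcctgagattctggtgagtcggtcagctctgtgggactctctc
Only the Retnla window held a match among these 4, with a STAT6 site starting 145 bases before the start and a TATA box 30 bases before it. Of 32851 promoters of this length, 6.95% held the STAT6 letters, 8.30% the GAS letters, 3.44% the ISRE letters and 13.6% the TATA letters. The motifs do not overlap within these windows, and a match is a string of letters, not a shown binding site.

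Csf1r, the receptor for the growth factor CSF1 that macrophages need to survive, showed no difference beyond its spread. IFNbeta arrays ran over 10.36 to 11.02, p19Arf arrays 10.24 to 10.86 and combination arrays 10.18 to 11.13, against 10.58 to 11.02 on eGFP arrays, in log2 values. Its combination mean was 10.63 ± 0.43 and its eGFP mean 10.77 ± 0.19 (SD, n = 5 each). The combination thus differed from eGFP by -0.14, with an SE of 0.17 and a 95% interval of -0.50 to 0.21. The differences of IFNbeta and p19Arf from eGFP were -0.08 and -0.17. The combination arrays were spread most widely, with replicates 4 and 5, both of low array spread, at 10.20 and 10.18 and the other 3 at 10.65 or above. Without the 5 arrays of lowest spread the 3 differences from eGFP turned to positive values, 0.0072 with IFNbeta, 0.019 with p19Arf and 0.15 with both vectors.

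Adgre1 encodes F4/80, the surface protein by which mouse macrophages are commonly sorted. IFNbeta arrays held 10.51 to 10.93, p19Arf arrays 9.90 to 10.72 and combination arrays 9.58 to 10.89, against 10.13 to 10.82 on eGFP arrays. The IFNbeta arrays were the tightest and had the highest mean, 10.76 ± 0.17, against 10.46 ± 0.28 in eGFP (SD, n = 5 each). The groups overlapped, and IFNbeta differed from eGFP by 0.29, p19Arf by -0.09 and the combination by -0.18 (SE 0.20 each). Against IFNbeta the combination differed by -0.47 (SE 0.20, adjusted p = 0.168), or by -0.29 without combination replicate 4.

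**Figure D1:**
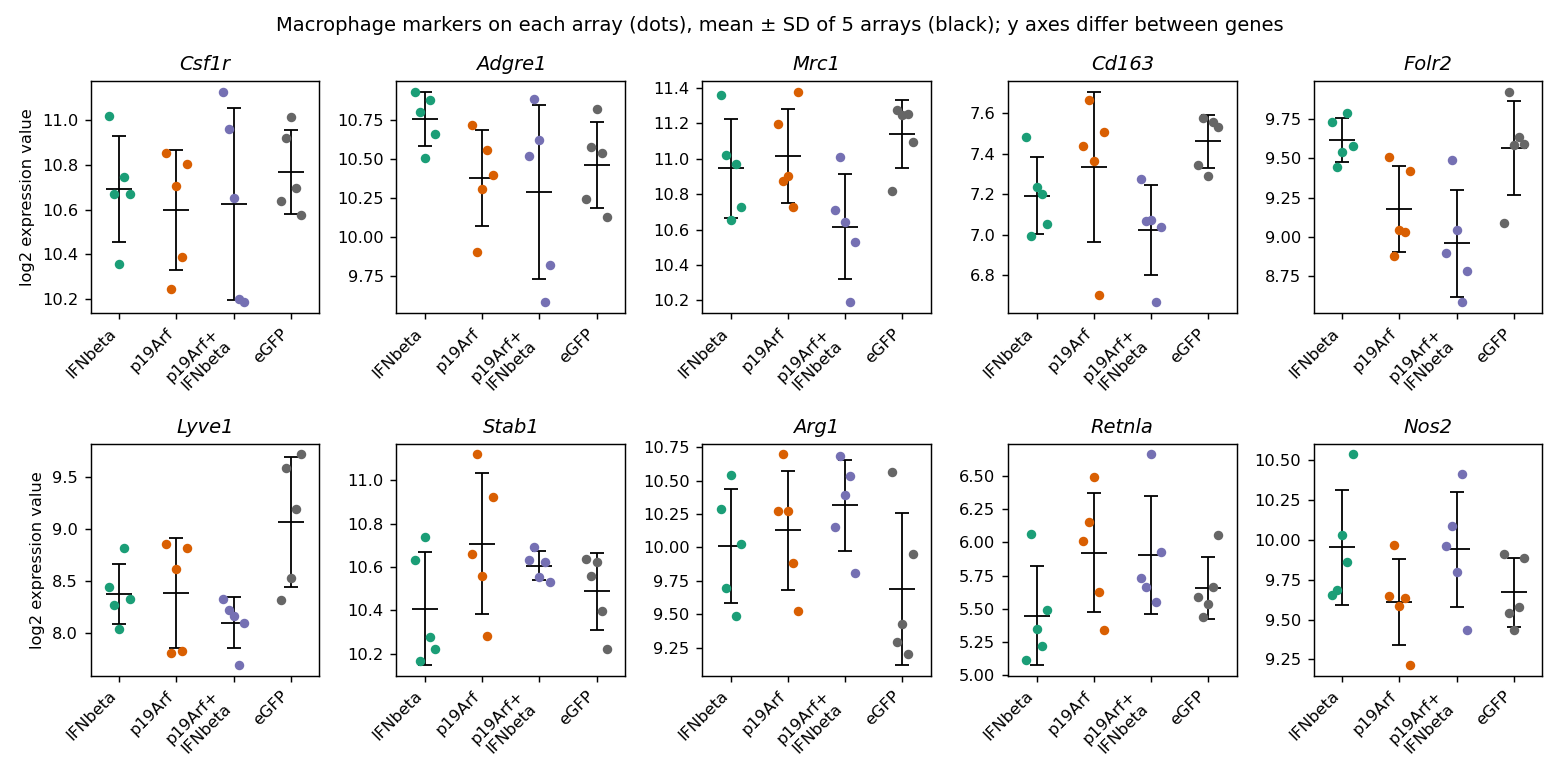
Log2 expression values (y axis, a scale of its own for each gene) of the 10 markers in the 4 vector groups (x axis); dots are single arrays and black bars the mean ± SD of 5. In Cd163 the 5 combination dots lie below the 5 eGFP dots, while in the other 9 genes the combination and eGFP overlap.

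Lyve1, a hyaluronan receptor of resident macrophages and of lymphatic vessels, had the widest range of the 10, from 7.69 to 9.72 over the 20 arrays. It was at 8.33, 8.22, 8.16, 7.69 and 8.10 in the combination, against 8.32, 9.59, 8.53, 9.20 and 9.72 in eGFP. The single vectors gave 8.44, 8.26, 8.03, 8.82 and 8.32 in IFNbeta and 8.86, 7.80, 8.62, 7.83 and 8.82 in p19Arf. Of the combination arrays 4 lay below all eGFP arrays, and the fifth, at 8.33, was just above eGFP replicate 1, at 8.32. The means were 8.10 ± 0.24 in the combination and 9.07 ± 0.63 in eGFP (SD, n = 5 each). The combination thus differed from eGFP by -0.97, with an SE of 0.25, a 95% interval of -1.49 to -0.45 and adjusted p = 0.234. IFNbeta and p19Arf had close to the same difference from the shared eGFP arrays, -0.69 and -0.68, with adjusted p-values of 1 and 0.661. In these 2 comparisons 0 genes passed, and at an unadjusted p under 0.05 Lyve1 alone of the 10 was lower in IFNbeta (1.45% of all genes), and Lyve1 and Folr2 in p19Arf (4.4%). Without eGFP replicate 1 the combination differed by -1.16 and passed (adjusted p = 0.0442), and a fit with array spread as covariate gave -0.67. Prox1, the regulator that defines lymphatic endothelium, was at 6.41 in the combination and 6.36 in eGFP, and was named after its values were seen. Both means lay below all array medians (7.49 or more), in a table with no detection call. Of 8 lymphatic genes, Lyve1 among them, 6 had higher and 2 lower means in the combination (55% and 45% of all genes). At an unadjusted p under 0.05, 1 was higher and 2 were lower (6.18% and 11.4% of all genes). Of the same 8 genes, 2 had higher and 6 lower means in IFNbeta than in eGFP (44.2% and 55.8% of all genes). In p19Arf 4 had higher and 4 lower means than in eGFP (54.4% and 45.6% of all genes). Lyve1 correlated with the score of 7 other lymphatic genes at r = -0.21 over 20 arrays (permutation test, adjusted p = 0.799 over 50 relations, Spearman rho = -0.08). The part of lymphatic vessels in the Lyve1 differences was not tested.

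Folr2, a folate receptor of resident and tumor macrophages, had its lowest means in the groups given p19Arf. Its values were 8.90, 9.49, 9.04, 8.58 and 8.78 in the combination and 9.51, 8.88, 9.04, 9.03 and 9.42 in p19Arf, against 9.09, 9.93, 9.59, 9.64 and 9.59 in eGFP. IFNbeta arrays held 9.74, 9.44, 9.54, 9.79 and 9.58, within the eGFP range. The combination mean of 8.96 ± 0.34 stood against 9.57 ± 0.30 in eGFP (SD, n = 5 each). The combination thus differed from eGFP by -0.61, with an SE of 0.16, a 95% interval of -0.94 to -0.28 and adjusted p = 0.234. The groups overlapped through eGFP replicate 1, at 9.09, and without it the difference was -0.73 (adjusted p = 0.0446). The p19Arf group alone differed from eGFP by -0.39 (adjusted p = 0.661), and IFNbeta by 0.05 (adjusted p close to 1). Against IFNbeta the combination differed by -0.66 (SE 0.16, adjusted p = 0.15), and without IFNbeta replicate 3 by -0.68 (adjusted p = 0.0377). Over both pairs of groups, tumors with p19Arf differed from tumors without it by -0.52 (SE 0.11, adjusted p = 0.061). This was the smallest adjusted p of the 10 genes in any contrast. It was also the smallest over all genes in this contrast, a value that other genes shared. That pooled difference was -0.32 in a fit with array spread as covariate (adjusted p = 0.838) and -0.37 without the 5 arrays of lowest spread.

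Mrc1, the mannose receptor CD206 and the usual flag of alternative activation, had its lowest mean in the combination. It held 10.71, 11.01, 10.64, 10.19 and 10.53 in the combination, against 10.82, 11.28, 11.24, 11.26 and 11.10 in eGFP. With 1 vector the values were 11.36, 11.02, 10.65, 10.97 and 10.73 in IFNbeta and 11.20, 10.87, 10.90, 10.73 and 11.38 in p19Arf. The combination mean, 10.62 ± 0.30, lay under the eGFP mean, 11.14 ± 0.19 (SD, n = 5 each), and 4 of its 5 arrays were below all eGFP arrays. The log2 difference was -0.52, with a standard error of 0.15, 95% limits of -0.84 to -0.21 and adjusted p = 0.234. The single vectors differed from eGFP by -0.19 for IFNbeta and -0.12 for p19Arf, within the spread. Against p19Arf the combination differed by -0.40 and against IFNbeta by -0.33 (SE 0.15 each, adjusted p = 0.998 and 0.182). Fitted with array spread as covariate, the Mrc1 difference from eGFP was -0.32, and without the 5 arrays of lowest spread -0.35.

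Cd163, the scavenger receptor for haptoglobin-bound hemoglobin, was the gene whose combination and eGFP arrays did not overlap. Its values were 7.27, 7.07, 7.07, 6.66 and 7.04 in the combination, against 7.34, 7.58, 7.29, 7.56 and 7.53 in eGFP. All 5 combination values lay below every array median (7.49 or more), while eGFP values stood on both sides of their own medians. With no detection call, it cannot be said whether Cd163 was detected in the combination. The highest combination array, at 7.27, was just under the lowest eGFP array, at 7.29, and 0.547% of all genes were separated downwards in this comparison. The mean difference was -0.44 (SE 0.14, 95% interval -0.74 to -0.14, adjusted p = 0.234). Of 28 alternative settings 15 altered this difference, and in those it ran from -0.50 to -0.31. The fit to genes above the median level did not include Cd163, whose mean was at percentile 38.5 of all genes. IFNbeta arrays, at 7.48, 6.99, 7.23, 7.20 and 7.05, had 4 of 5 below all eGFP arrays, with a difference of -0.27 (SE 0.14). The p19Arf arrays reached both ends, from replicate 4 at 6.70 to replicate 2 at 7.67, and differed by -0.13, or 0.03 without replicate 4.

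Stab1, the multifunctional clearance receptor stabilin-1, did not share the lower means of Lyve1, Folr2, Mrc1 and Cd163 in the combination. IFNbeta arrays ran over 10.17 to 10.74, p19Arf arrays 10.28 to 11.12 and combination arrays 10.53 to 10.69, against 10.22 to 10.64 on eGFP arrays. Its differences from eGFP were -0.08, 0.22 and 0.12 (SE 0.14 each), in the same order of groups. In tumors with p19Arf it was 0.21 above tumors without it (adjusted p = 0.139). By IFNbeta against p19Arf it differed by -0.30 (adjusted p = 0.229), a contrast in which 5 genes of the whole array (0.0251%) passed and none of them was among the 10. Those 5 were Ifi207, Ifi213, Ifit3b, Ms4a4d and Phf11d, named after their values were seen.

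**Figure D2:**
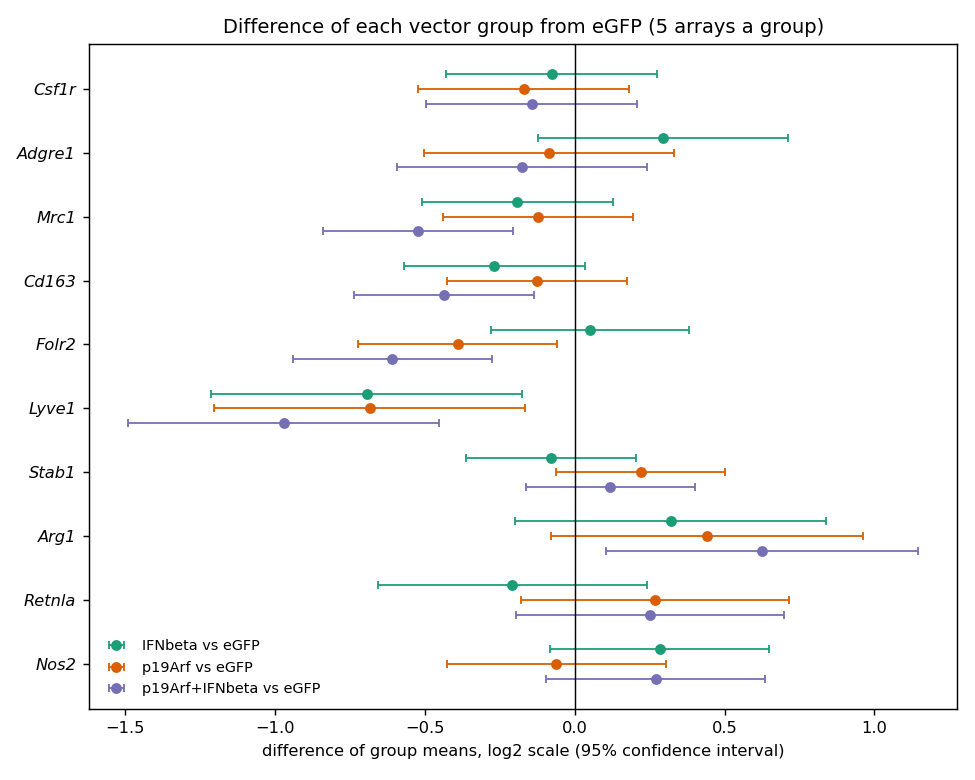
Difference of each vector group from eGFP in log2 units (x axis) for the 10 markers (y axis); dots are differences of means of 5 arrays and bars 95% confidence intervals before adjustment over genes. The 3 sets share the eGFP arrays. The interval of the combination lies below 0 for Mrc1, Cd163, Folr2 and Lyve1 and above 0 for Arg1.

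Arg1 and Nos2, the enzymes that divide arginine use between them, both had higher means in the combination than in eGFP. Arg1, which turns arginine to ornithine and urea, was at 10.15, 10.68, 10.39, 10.53 and 9.81 in the combination, against 10.56, 9.29, 9.43, 9.21 and 9.95 in eGFP. IFNbeta arrays held 10.29, 9.70, 10.54, 9.49 and 10.03 and p19Arf arrays 10.27, 10.70, 10.28, 9.88 and 9.52. The eGFP group was split, with replicate 1 at 10.56 and the other 4 at 9.95 or below, so the groups overlapped. Arg1 averaged 10.31 ± 0.34 in the combination and 9.69 ± 0.57 in eGFP (SD, n = 5 each). The combination thus differed from eGFP by 0.63, with an SE of 0.25, a 95% interval of 0.11 to 1.15 and adjusted p = 0.238. The differences were 0.32 for IFNbeta and 0.44 for p19Arf. Without eGFP replicate 1 the 3 differences were 0.84 for the combination, 0.54 for IFNbeta and 0.66 for p19Arf, and no adjusted p was below 0.0594.

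Nos2, the inducible nitric oxide synthase, was at 9.96, 10.09, 9.80, 10.42 and 9.44 in the combination and 9.65, 9.69, 10.03, 9.86 and 10.54 in IFNbeta, against 9.91, 9.54, 9.43, 9.58 and 9.89 in eGFP. The p19Arf arrays held 9.65, 9.97, 9.58, 9.63 and 9.21. The IFNbeta mean, 9.95 ± 0.36, and the combination mean, 9.94 ± 0.36, were above the eGFP mean, 9.67 ± 0.21 (SD, n = 5 each), by 0.28 and 0.27 (SE 0.18 each). The adjusted p-values were 1 and 0.425, and the p19Arf difference was -0.06. Single arrays carried much of this, since without IFNbeta replicate 5, at 10.54, the first difference was 0.14, and without combination replicate 4, at 10.42, the second was 0.15. Pooled over both pairs of groups, tumors with IFNbeta were 0.31 above tumors without it (SE 0.12, adjusted p = 0.959). In that pooled contrast 0 genes (0%) passed, and 1 of the 10 was higher and 3 lower at an unadjusted p under 0.05, against 2.77% and 2.15% of all genes. Neutrophils can also carry Nos2, and across the 20 arrays Nos2 followed the neutrophil score with Pearson r = 0.63 (permutation p = 0.00245, adjusted p = 0.0895) and Spearman rho = 0.57 (permutation p = 0.00973, adjusted p = 0.243), 1 of 50 relations with cell type scores. That r was 0.59 with the 2 arrays of most extreme score removed and 0.61 for deviations from the group means. The part of neutrophils in the Nos2 differences was not tested.

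Retnla, the secreted protein RELM-alpha that STAT6 drives in mouse macrophages, had values from 5.11 to 6.66 over the 20 arrays, below the median of each array, in a table that spans 2.33 to 14.69 and has no detection call, so it cannot be said whether the gene was detected. IFNbeta arrays spanned 5.11 to 6.06, p19Arf arrays 5.34 to 6.49 and combination arrays 5.55 to 6.66, against 5.44 to 6.05 on eGFP arrays. Differences from eGFP were -0.21, 0.27 and 0.25 (SE 0.22 each), and the last was 0.06 without combination replicate 3, at 6.66. Against IFNbeta the combination differed by 0.46 (adjusted p = 0.187), and IFNbeta against p19Arf by -0.48 (adjusted p = 0.229).

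The 2 vectors were also compared across the whole design. Tumors with p19Arf differed from tumors without it by -0.48 in Lyve1, -0.28 in Adgre1, -0.23 in Mrc1, -0.15 in Cd163, 0.37 in Arg1, 0.36 in Retnla, -0.12 in Csf1r and -0.04 in Nos2. In this contrast 0 genes passed, and 3 of the 10 were higher and 3 lower at an unadjusted p under 0.05, where 14.8% of all genes were higher and 18% lower. Tumors with IFNbeta differed from tumors without it by -0.49 in Lyve1, -0.30 in Mrc1 and -0.29 in Cd163, with adjusted p-values of 0.959 each. The differences in Arg1, Adgre1, Csf1r, Folr2, Stab1 and Retnla were 0.25, 0.10, -0.03, -0.08, -0.09 and -0.11. The interaction, which asks whether the combination departs from the sum of the single vectors on the log2 scale, ran from -0.38 in Adgre1 to 0.41 in Lyve1, and 0 of the 10 had an unadjusted p under 0.05 (1.3% of all genes did).

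Ratios within an array were taken to set the markers against Csf1r and Adgre1, whose mean log2 value on each array was subtracted. These are descriptions with no test. Relative to that mean, Mrc1 stood at 0.16 ± 0.25 in the combination and 0.22 ± 0.12 in IFNbeta, against 0.52 ± 0.17 in eGFP (SD, n = 5 each). The p19Arf group, at 0.53 ± 0.25, was level with eGFP, and in the combination and in IFNbeta 4 of 5 arrays lay below all eGFP arrays. Lyve1 relative to the mean differed from eGFP by -0.81 (SE 0.35) in the combination and -0.80 (SE 0.33) in IFNbeta, Folr2 by -0.45 (SE 0.18) and -0.06 (SE 0.14), and Cd163 by -0.28 (SE 0.20) and -0.38 (SE 0.16). The means of Lyve1, Folr2, Mrc1 and Cd163 in the combination were therefore also lower relative to these 2 general macrophage genes. Below all eGFP arrays lay 3 of 5 combination arrays for Lyve1 and for Folr2, and 1 for Cd163. Relative to the same mean, Stab1 and Retnla differed from eGFP by 0.28 (SE 0.22) and 0.41 (SE 0.33) in the combination. Nos2 and Arg1 differed by 0.43 (SE 0.33) and 0.79 (SE 0.40) on that measure. The log2 ratio of Mrc1 to Nos2 was 0.68 ± 0.52 in the combination, 0.99 ± 0.60 in IFNbeta and 1.41 ± 0.49 in p19Arf, against 1.47 ± 0.39 in eGFP. The log2 ratio of Arg1 to Nos2 had higher means in the combination, at 0.37 ± 0.22, and in p19Arf, at 0.52 ± 0.22, than in eGFP, at 0.02 ± 0.40. The combination differed from eGFP by -0.79 (SE 0.29) in the first ratio and by 0.36 (SE 0.20) in the second, where its 5 arrays lay within the eGFP range.

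Across the 20 arrays the markers fell into groups that moved together. Of 45 pairs, 13 passed by Pearson's r and 12 by Spearman's rho at an adjusted p of 0.05 over the 45. Mrc1 and Folr2 had Pearson r = 0.76 (permutation p = 0.0001, adjusted p = 0.00225) and Spearman rho = 0.69 (permutation p = 0.00112, adjusted p = 0.0123), and Csf1r and Adgre1 had Pearson r = 0.75 (permutation p = 9e-05, adjusted p = 0.00225) and Spearman rho = 0.69 (permutation p = 0.00091, adjusted p = 0.0123). With the 2 arrays most distant from the first gene's median removed, these were 0.72 and 0.59, and for deviations from the group means 0.79 and 0.82. After quantile normalization, which gives all arrays the same spread, they were 0.62 and 0.59. Mrc1 with Csf1r, Mrc1 with Adgre1, Folr2 with Csf1r and Folr2 with Adgre1 had r = 0.66, 0.58, 0.56 and 0.72 as deposited. After quantile normalization these were 0.43, 0.34, 0.31 and 0.64. Arg1 and Nos2, the nominal opposites, had Pearson r = 0.57 (permutation p = 0.00983, adjusted p = 0.0369) and Spearman rho = 0.69 (permutation p = 0.00144, adjusted p = 0.0123). That relation was 0.54 without the 2 arrays, 0.61 for the deviations and 0.65 after quantile normalization. Negative relations that passed by Pearson's r were Mrc1 with Nos2, Pearson r = -0.60 (permutation p = 0.00512, adjusted p = 0.0249) and Spearman rho = -0.52 (permutation p = 0.0201, adjusted p = 0.0695), and Lyve1 with Arg1, Pearson r = -0.60 (permutation p = 0.00553, adjusted p = 0.0249) and Spearman rho = -0.60 (permutation p = 0.00617, adjusted p = 0.0278). For the deviations they were -0.57 and -0.43, and without the 2 arrays -0.36 and -0.61. Mrc1 and Arg1, both STAT6 targets in the textbook account, had r = -0.50 (permutation test, adjusted p = 0.0777; Spearman rho = -0.47).

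**Figure D3:**
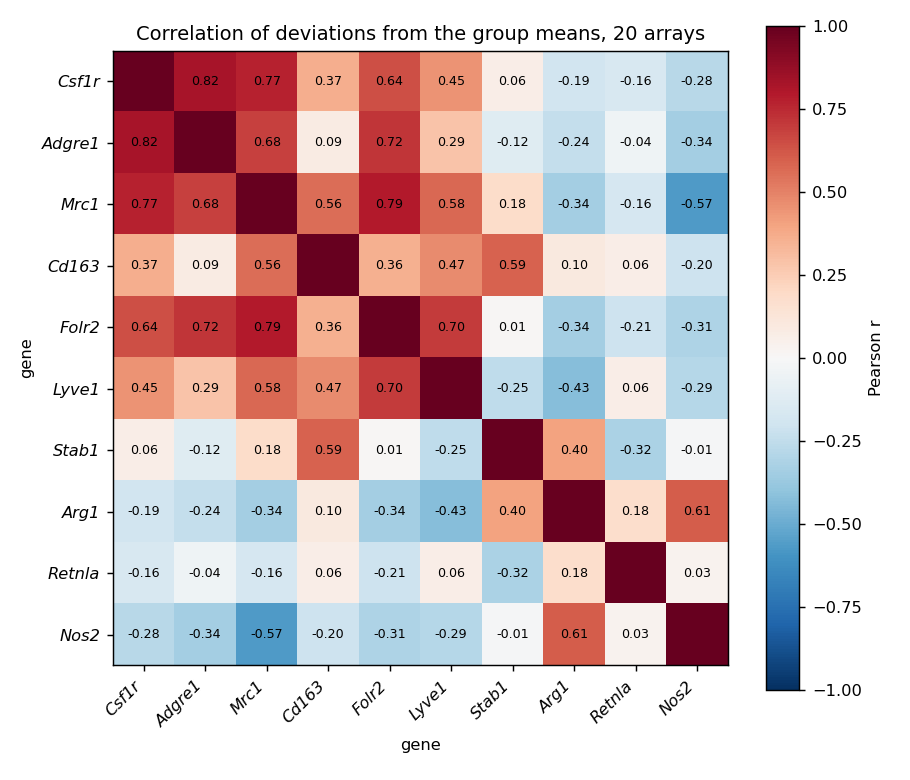
Pearson correlation of deviations from the group means over 20 arrays for each pair of the 10 markers (both axes; colour and printed value give r). Csf1r, Adgre1, Mrc1 and Folr2 form a block with values of 0.64 or more, and Arg1 with Nos2 stands at 0.61. The values are as deposited, before quantile normalization.

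The spread of an array moved with several of these genes. Csf1r followed it with Pearson r = 0.76 (permutation p = 0.00011, adjusted p = 0.0008) and Spearman rho = 0.61 (permutation p = 0.00521, adjusted p = 0.013), and Folr2 with Pearson r = 0.76 (permutation p = 0.00016, adjusted p = 0.0008) and Spearman rho = 0.73 (permutation p = 0.00038, adjusted p = 0.0038), among 10 relations. With the 2 arrays of most extreme spread removed, r was 0.69 for Csf1r and 0.68 for Folr2, and for deviations from the group means 0.79 and 0.66. Adgre1, Mrc1 and Lyve1 also passed, at r = 0.71, 0.66 and 0.61 (permutation test, adjusted p = 0.00147, 0.00365 and 0.00954; Spearman rho = 0.67, 0.59 and 0.65). Nos2, Arg1, Stab1, Retnla and Cd163 did not pass. After quantile normalization r with the deposited spread was 0.51 for Csf1r and 0.65 for Folr2. Of the 50 relations of the 10 genes with scores of adipocyte, skeletal muscle, skin epidermis, lymphatic endothelium and neutrophil genes 0 passed, with a smallest adjusted p of 0.0895 in permutation tests.

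**Figure D4:**
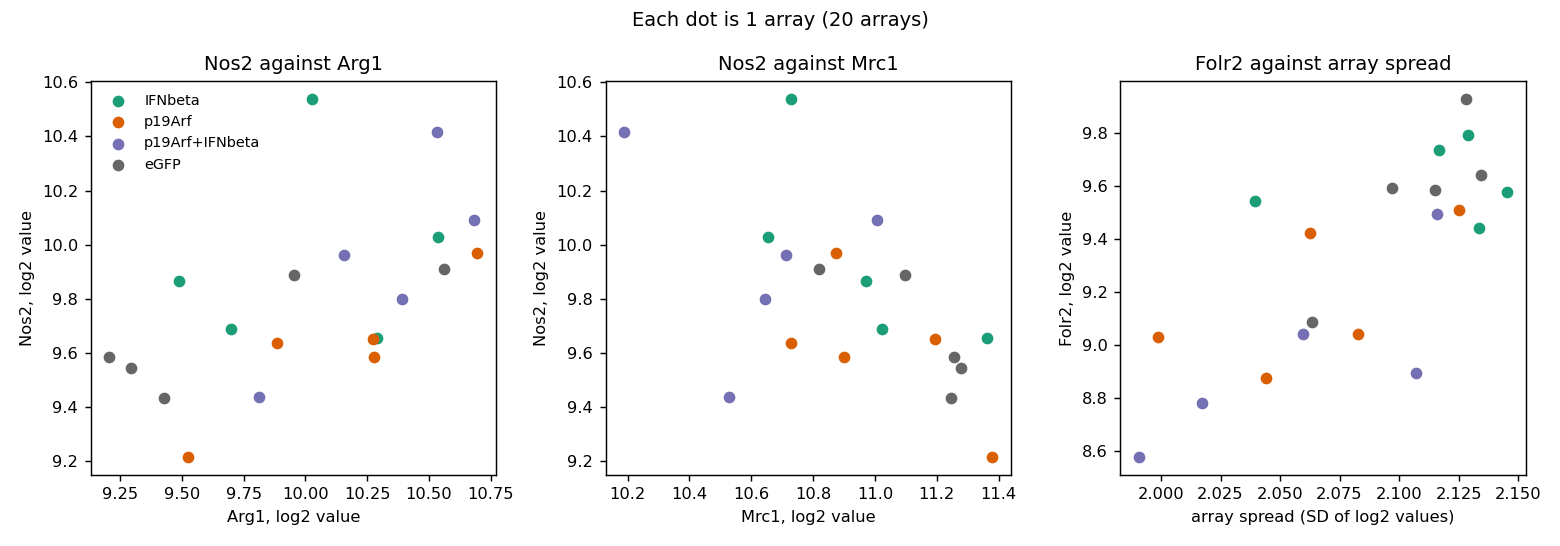
Log2 values of Nos2 against Arg1, of Nos2 against Mrc1, and of Folr2 against the array spread (the standard deviation of an array's log2 values); each dot is 1 of 20 arrays, coloured by group. Nos2 is higher where Arg1 is higher (r = 0.57), lower where Mrc1 is higher (r = -0.60), and Folr2 is higher on arrays of wider spread (r = 0.76).

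The genes whose within-group pattern was most like each marker were ranked by r of deviations from the group means over the 20 arrays, with no test. Csf1r was most like Olfml3, Tnfrsf21 and Tgfbr2, at 0.94, 0.93 and 0.93, and Adgre1 was most like Hnmt, Clec4a1 and Ms4a6b, at 0.95, 0.94 and 0.94. Mrc1 was most like Hpgds, Fcrls and Zfp207, at 0.90, 0.89 and 0.87, Folr2 most like Sulf2, Snx3 and Ube2h, at 0.84, 0.84 and 0.83, and Cd163 most like Stx18, Gas6 and Trip11, at 0.84, 0.82 and 0.82. For Lyve1 they were Lrif1, Spry1 and Pdgfc, at 0.85, 0.85 and 0.83, and for Stab1 Rnf150, Sash1 and Zbtb34, at 0.85, 0.80 and 0.79. Arg1 was most like Cish, Gbp5 and Noct, at 0.82, 0.80 and 0.80, of which Cish encodes a cytokine-induced SOCS-family inhibitor. Nos2 was most like Tnfaip2, P2ry2 and Plaur, at 0.87, 0.84 and 0.84, and Retnla reached 0.73, 0.69 and 0.68 with Nlrp4e, Sis and Lepr.

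The 10 genes were set beside longer lists of their programs, in which no gene passed in any comparison with eGFP. The lists too were chosen with earlier results of these data known, so their counts are descriptions and no independent test. Of 26 resident and scavenger macrophage genes, 5 of them among the 10, 20 had lower means in the combination than in eGFP, as did 45% of all genes, with a median difference of -0.29 against 0.02 for all genes, and 10 were lower and 0 higher at an unadjusted p under 0.05 (11.4% and 6.18% of all genes). In p19Arf against eGFP 22 of the 26 had lower means (45.6% of all genes), 6 of them by that rule (4.4% of all genes), and in IFNbeta 17 (55.8%), 1 of them by that rule (1.45%). Vsig4, a complement receptor of resident macrophages, differed from eGFP by -0.35 with IFNbeta, -0.75 with p19Arf and -0.56 with both, at group means of 5.41 to 6.16, where the table does not say whether a gene was detected. The scavenger receptor Msr1 differed by 0.03, -0.25 and -0.26. C1qa, a complement subunit made by macrophages, differed by 0.04 in the combination, where its sister subunits C1qb and C1qc, named after their values were seen, differed by -0.33 and -0.39. Timd4, a receptor for dying cells, differed by -0.07 and Marco, another scavenger receptor, by 0.01. Of 17 pan-macrophage genes 11 had higher and 6 lower means in the combination (55% and 45% of all genes), with a median difference of 0.02. Itgam, the integrin chain CD11b, was at 0.09 and Cd68, a lysosomal glycoprotein, at -0.45.

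Alternative activation genes stood on both sides of eGFP in the combination. Of 20, with Arg1, Mrc1 and Retnla among them, 11 had higher and 9 lower means, as 55% and 45% of all genes did, with a median difference of 0.09 against 0.02. At an unadjusted p under 0.05, 3 were higher and 5 lower (6.18% and 11.4% of all genes). The chemokines Ccl17 and Ccl22, induced by interleukin 4, differed by -0.70 and -0.47, and the lectins Mgl2 and Clec10a by -0.53 and -0.33, on the side of Mrc1. Arg1 stood on the other side with Tgm2, a transglutaminase, at 0.33 and Alox15, a lipoxygenase, at 0.28, both named after their values were seen. Chil3, a chitinase-like protein, differed by -0.15, Irf4, a transcription factor of the interleukin 4 program, by -0.01 and Il4ra, the interleukin 4 receptor chain, by 0.16. Among the cytokines, Il4 was at -0.11, Il13 at -0.05, Il10 at 0.28 and Ifng at -0.06, and the CSF1R ligands Csf1 and Il34 were at -0.14 and 0.11. Of the 20 measured polarizing cytokines and receptors 8 had higher and 12 lower means (55% and 45% of all genes).

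Of 20 classical activation genes, Nos2 among them, 14 had higher means in the combination than in eGFP (55% of all genes), and 6 were higher and 0 lower at an unadjusted p under 0.05 (6.18% and 11.4% of all genes), with a median difference of 0.10. Il1b, an inflammatory cytokine, was at 11.35 in the combination and 10.38 in eGFP, a difference of 0.97, and Acod1, which makes the antimicrobial metabolite itaconate, at 10.80 and 10.03, a difference of 0.77 (adjusted p = 0.234 for both). Tnf, another inflammatory cytokine, differed by 0.29, Irf5, a transcription factor, by 0.07, Cd86, a costimulatory ligand, by -0.11 and Il12b, a subunit of interleukin 12, by -0.18. In IFNbeta against eGFP 13 of the 20 had higher means (44.2% of all genes) and in p19Arf 8 (54.4%), and 0 in either were higher at an unadjusted p under 0.05 (1.34% and 2.84% of all genes). Among 12 genes of arginine metabolism, 6 had higher and 6 lower means in the combination (55% and 45% of all genes). Arg2, the mitochondrial arginase, differed by 0.40, Slc7a2, an arginine transporter, by 0.11 and Odc1, which commits ornithine to polyamines, by -0.09. Of 10 monocyte genes 6 had higher means (55% of all genes), with Ccr2, the receptor that brings monocytes to tissue, at 0.02. At an unadjusted p under 0.05, 3 of these monocyte genes were higher and 1 lower (6.18% and 11.4% of all genes). Spp1, Ass1 and Ly6c2 were not analysed here.

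**Figure D5:**
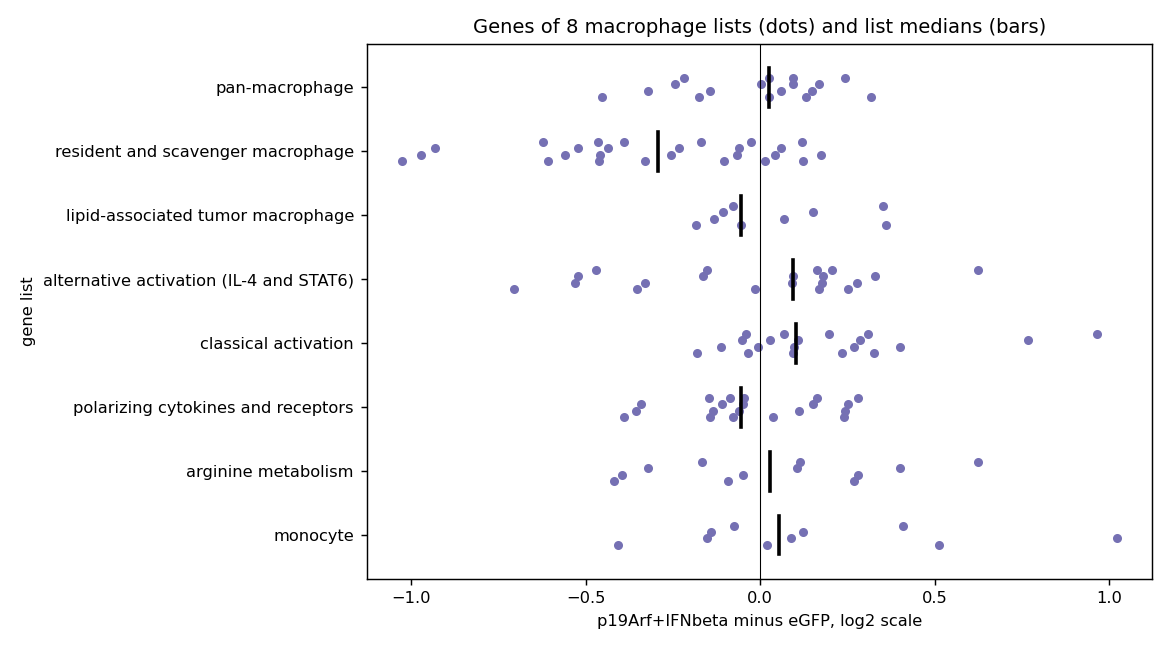
Difference of the combination from eGFP in log2 units (x axis) for the measured genes of 8 lists (y axis); dots are genes, placed at small vertical offsets, and black bars the list medians. The resident and scavenger list has the lowest median, -0.29, and the alternative activation list spans both sides, from Ccl17 at -0.70 to Arg1 at 0.63.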

How the data were processed

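The deposited table of 35556 probe sets by 20 arrays was taken to hold log2 values that the authors had summarised and normalized, with the base read from their range of 2.33 to 14.69. The submitters' processing notes name Affymetrix Expression Console and GCOS; summarisation, background correction and filters: not given in the sources used here. Probe sets were named by platform annotation, with symbols updated to GRCm38.p6. The 21789 probe sets with 1 symbol were reduced to 19938 genes by keeping each gene's brightest on average, with no filter. limma 3.58.1 in R 4.3.3 fitted 1 mean per group to all 20 arrays (16 residual degrees of freedom), with eBayes, 2-sided tests, 9 contrasts and an F-test, Benjamini-Hochberg adjustment over all genes within each and a threshold of 0.05. The script was tested on simulated data. Correlations used 100000 permutations, 2-sided. A list score is the mean log2 value of its measured genes. Named genes were the 10 markers, a fixed set of list genes, any list gene that passed, and the 3 genes most like each marker other than predicted ones. The markers and lists were chosen with earlier results of these data known. Alternatives covered normalization, weights, moderation, the array spread, low values, probe sets, replicate numbers and left-out arrays. The number of arrays limits the precision.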

Additional observations from a re-analysis of the deposited data

How the results depend on the processing

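Of 61 marker differences in the text, 12 changed sign under some setting, 8 when 1 array was left out, and none of them had passed. With the array spread as a covariate, Csf1r was at 0.070 for p19Arf and 0.12 for the combination against eGFP and 0.15 with p19Arf against without, Adgre1 at 0.16 and 0.095 and Mrc1 in p19Arf at 0.064. Without the 5 arrays of lowest spread, chosen after seeing the data, Csf1r was at 0.0072, 0.019 and 0.15 against eGFP and at 0.078 and 0.067 with p19Arf and with IFNbeta against without; Adgre1 was at 0.011 and 0.21 and Mrc1 in p19Arf at 0.020. Quantile normalization put Nos2 at 0.0037 in p19Arf against eGFP and 0.057 with p19Arf against without. Leaving out 1 array gave ranges of -0.069 to 0.14 for Folr2 and -0.16 to 0.0072 for Csf1r in IFNbeta, -0.21 to 0.033 for Cd163, -0.15 to 0.038 for Nos2 and -0.17 to 0.032 for Adgre1 in p19Arf, -0.33 to 0.0012 for Adgre1 in the combination, -0.097 to 0.036 for Nos2 with p19Arf against without and -0.089 to 0.029 for Csf1r with IFNbeta against without. Lyve1, Folr2, Mrc1, Cd163 and Arg1 kept their direction in the combination against eGFP in the 15 alternatives that altered the difference at all (14 for Lyve1). Leaving out 1 array brought calls at adjusted p of 0.0125 to 0.0498: Folr2 and Lyve1 in the combination against eGFP without eGFP replicate 1, Folr2 in the combination against IFNbeta without IFNbeta replicate 3, and with p19Arf against without Folr2 (without eGFP 1, IFNbeta 3, combination 1 or 2, or p19Arf 1), Lyve1 (without eGFP 1, IFNbeta 3 or p19Arf 1) and Arg1 (without eGFP 1). With array weights the counts of genes passing became 5 in IFNbeta and 166 in the combination against eGFP, 1730 in the combination against IFNbeta, 4495 in IFNbeta against p19Arf, 5197 with p19Arf against without, 12 with IFNbeta against without and 2573 in the F-test. With those weights Folr2, Mrc1, Arg1 and Retnla passed with p19Arf against without (adjusted p from 0.00491 to 0.0434), Folr2 in the combination against IFNbeta, and Folr2, Stab1 and Retnla in IFNbeta against p19Arf. Without the 5 arrays of lowest spread 1, 3 and 0 genes passed in IFNbeta against eGFP, the combination against eGFP and IFNbeta against p19Arf. In the last, 5 passed as reported, 0 with quantile normalization or the spread covariate, 2 among genes above the median level, and 1 with the replicate block, which changed no call of the 10 genes. Replicate numbers did not pair the arrays: deviations of 30 same-numbered pairs correlated at -0.62 to 0.66, 11 of them above 0.1, and 3 of 20 arrays correlated best with their own number. Median centring and the genes above the median level each gave 1 in the combination against IFNbeta, and genes above that level gave 945 with p19Arf against without, Folr2 among them (adjusted p = 0.0456). Without 1 array the counts ran from 0 to 84 in the combination against eGFP (84 without eGFP replicate 1), 0 to 2351 in the combination against IFNbeta (2351 without IFNbeta replicate 3), 0 to 28 in IFNbeta against p19Arf (28 without p19Arf replicate 1) and 0 to 3892 with p19Arf against without (3892 without IFNbeta replicate 3, 2943 without eGFP replicate 1, 3092 and 1241 without combination replicates 2 and 1, 2797 without p19Arf replicate 1). The cause of these changes was not tested.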

Other observations

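Of 9 measured genes of lipid-handling tumor macrophages, 6 had higher means in IFNbeta than in eGFP (44.2% of all genes) and 3 were higher at an unadjusted p under 0.05, against 1.34% of all genes, with a median difference of 0.09 against -0.02 for all genes. The 3, named after their values were seen, were Cd36, a fatty acid transporter, at 0.82, Gpnmb, a lysosomal glycoprotein, at 0.58, and Lpl, the lipoprotein lipase, at 0.34. Cd36 and Lpl are also adipocyte genes, and 8 of 9 adipocyte genes had higher means in IFNbeta, with scores of 7.75 to 8.66 against 7.46 to 8.34 in eGFP; the part of adipocytes in these values was not tested. In the combination the scavenger list was led downward by Cbr2, a carbonyl reductase, at -1.02, and Cd209f, a lectin, at -0.93, beside Lyve1, and the monocyte list upward by Plac8 at 1.02, all 3 named after their values were seen.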
